A study of Mus musculus with 26 samples.

Results

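The genes described here are 28 rows of a mouse gene count table that names 55291 genes, read across all 10 groups of a bulk RNA-seq series. They were taken by name as genes of cholesterol and fatty acid synthesis and of the SREBP system that controls both, by a rule that uses no measured value, although earlier results of these data were known when it was set. Enzymes of the sterol pathway made up 17 of them (Hmgcs1, Mvk, Pmvk, Mvd, Idi1, Fdps, Fdft1, Sqle, Lss, Cyp51, Tm7sf2, Msmo1, Nsdhl, Hsd17b7, Ebp, Sc5d and Dhcr7). The SREBP system was represented by 4 genes (Srebf1, Srebf2, Scap and Insig1), the supply and transport of sterol by 2 (Acat2 and Stard4), and fatty acid synthesis by 5 (Fasn, Acaca, Scd1, Scd2 and Elovl6). All 28 passed the filter on low counts in both count tables.

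Cells build cholesterol from acetyl-CoA, through mevalonate and squalene, in a long chain of enzymes, many of them on the endoplasmic reticulum. The membrane-bound transcription factors SREBP-1 (Srebf1) and SREBP-2 (Srebf2) are escorted to the Golgi by Scap when sterol is low, are cut there, and then turn on this chain and the genes of fatty acid synthesis. Insig1, itself an SREBP target, holds Scap back when sterol is plentiful, so the enzymes usually rise and fall together.

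The study asked what CTCF, the zinc finger protein that anchors chromatin loops, owes to the RNA it binds. Embryonic stem cells (ESCs) of the mouse E14 line were grown in N2B27 medium with LIF, CHIR99021 and PD0325901. The study's N2B27 recipe includes fetal bovine serum. These ESCs were compared with neural progenitor cells (NPCs) made from them over 2 days in N2B27 on laminin. Cell type and culture condition therefore changed together and cannot be told apart. In the rescue lines, endogenous CTCF carries an auxin degron, and a doxycycline-inducible transgene supplies WT CTCF or CTCF without zinc finger 1 (ΔZF1). Every rescue library, WT included, came from cells given 1 µM 5-Ph-IAA and 1 µg/ml doxycycline for 24 h. There were 2 libraries for each rescue group (WT and ΔZF1, as ESCs and as NPCs, called ESC-WT, NPC-WT, ESC-ΔZF1 and NPC-ΔZF1). Each rescue line is a homozygous clone, and the parent line also holds an Hb9-mCherry reporter and OsTir1(F74G). In the truncation lines, an in-frame eGFP cassette with a polyadenylation signal stops Podxl or Grb10 RNA after the first coding exon (Podxl pA and Grb10 pA, homozygous clones). These were compared with untreated parental E14 WT cells as ESCs and as NPCs, with 3 libraries in each of these 6 groups. Mutant and WT lines differ in clone as well as in mutation, and these cannot be told apart. An effect of ΔZF1 or of a truncation therefore means here a difference between lines.

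Counts on genes summed to between 6425179 and 28730435 per rescue library and between 1907505 and 8845087 per truncation library, and the 28 genes took 0.505% to 0.805% of them. Replicates of most groups were close, but the pair of NPC-WT libraries was not. Over 9107 genes with a mean of at least 10 CPM (the usual depth-scaled count, on TMM-adjusted library totals), the median absolute log2 difference was 0.323 between the NPC-WT libraries and 0.059 to 0.084 within the other 3 rescue groups. Library 2 of ESC Grb10 pA lay 0.237 from its partners, against 0.086 to 0.166 for the other truncation libraries over 9321 genes. All 6 naive ESC markers were lower in NPCs of all 5 lines, summing to 3620 to 5560 CPM in ESC libraries and 349 to 829 CPM in NPC libraries. Neural progenitor markers, summed over 5 genes, stood at 34.4 to 139 CPM in NPC libraries and 16.0 to 46.3 CPM in ESC libraries, and Hes5 was at 0 in every NPC-WT and NPC Grb10 pA library. Podxl and Grb10 were lower in every library in which they were truncated (3.00 to 24.2 CPM against 26.3 to 258 CPM for Podxl, and 30.3 to 59.2 CPM against 117 to 811 CPM for Grb10). Counts per gene cannot show the loss of zinc finger 1, and Ctcf was at 784 to 859 CPM in ΔZF1 libraries against 448 to 576 CPM in WT rescue libraries. Ctcf was also lower in the Grb10 pA line, at 133 to 156 CPM against 228 to 233 CPM in E14 WT as ESCs. As NPCs it read 154 to 160 CPM against 210 to 218 CPM. In Podxl pA it read 233 to 250 CPM in ESCs and 212 to 220 CPM in NPCs. The part of Ctcf levels in the changes below was not tested.

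Per kilobase of exon, Scd2 was the most abundant of the 28 genes in all 10 groups, with group means of 180 to 415 CPM per kb. Scd2 encodes a stearoyl-CoA desaturase, which puts the double bond into newly made saturated fatty acids. Fasn, the fatty acid synthase, or Scd1, the neighbouring desaturase gene on chromosome 19, came next on this scale in each group. At the other end stood Tm7sf2, a sterol reductase, Hsd17b7, a ketosteroid reductase, and Idi1, the isopentenyl diphosphate isomerase, with group means of 1.31 to 6.96 CPM per kb. In ESC Podxl pA Acaca (6.74 CPM per kb) also ranked below Tm7sf2, and in ESC-WT Fdps (5.57 CPM per kb) ranked below Idi1. Scd1 and Scd2 are close paralogs, so how reads common to both were shared out is uncertain. Counting took no account of strand, and parts of the exons of Fdps (26.7% of exon length, shared with Gm43738), Fdft1 (18.3%, Ctsb), Scap (13.2%, 5830462I19Rik), Hmgcs1 (12.1%, Gm48342), Tm7sf2 (12.1%, Vps51) and Idi1 (9.2%, Gm48574) overlap other genes.

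Many of these genes were higher in NPC-ΔZF1 than in NPC-WT, as given below. The promoters of the members were read from RefSeq (GRCm38.p6, 250 bases before to 50 after the start), which held 22 of the 28. SREBPs act at promoters through a sterol regulatory element, commonly beside a CCAAT box bound by NF-Y. Both strands were searched, and where a gene had several starts a hit at any of them counted. CCAAT was found for 18 of 22 members (81.8%) and for 41.1% of 27025 genes, which were not limited to genes expressed here. The part of any motif in the changes was not tested. The Sp1 box GGGCGG was found in 18 of 22 (81.8%) against 38.2%. The strict element TCACNCCAC was found in Hmgcs1 alone (4.5% of members against 1.4% of all genes), and this letter search says nothing of degenerate sites. Of the members up-regulated in NPC-ΔZF1 below, 9 of 10 with an entry held CCAAT, and of the others 9 of 12. The 250 bases before the start are shown for Hmgcs1, the cytosolic synthase that feeds the mevalonate pathway, and for the members with the largest increases in NPC-ΔZF1, 5′ to 3′ on the strand of the gene with CCAAT (or its reverse complement) and TCACNCCAC in capitals.
Hmgcs1, chr13:119690101-119690350, plus strand: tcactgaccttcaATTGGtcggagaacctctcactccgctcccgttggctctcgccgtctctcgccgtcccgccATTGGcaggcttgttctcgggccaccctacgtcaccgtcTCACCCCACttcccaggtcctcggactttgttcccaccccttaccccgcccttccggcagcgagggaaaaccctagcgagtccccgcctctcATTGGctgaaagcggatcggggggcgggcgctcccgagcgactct
Msmo1, chr8:64733579-64733828, minus strand: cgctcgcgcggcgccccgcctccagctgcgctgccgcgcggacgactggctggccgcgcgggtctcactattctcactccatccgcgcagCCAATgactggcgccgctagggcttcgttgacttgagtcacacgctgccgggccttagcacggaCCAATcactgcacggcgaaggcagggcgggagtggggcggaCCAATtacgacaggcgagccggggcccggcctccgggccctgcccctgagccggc
Cyp51, chr5:4104698-4104947, minus strand: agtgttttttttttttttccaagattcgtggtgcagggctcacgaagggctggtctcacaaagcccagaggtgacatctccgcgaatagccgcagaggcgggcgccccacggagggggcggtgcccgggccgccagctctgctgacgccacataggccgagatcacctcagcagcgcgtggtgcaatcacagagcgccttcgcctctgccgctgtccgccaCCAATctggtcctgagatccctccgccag
Elovl6, chr3:129532136-129532385, plus strand: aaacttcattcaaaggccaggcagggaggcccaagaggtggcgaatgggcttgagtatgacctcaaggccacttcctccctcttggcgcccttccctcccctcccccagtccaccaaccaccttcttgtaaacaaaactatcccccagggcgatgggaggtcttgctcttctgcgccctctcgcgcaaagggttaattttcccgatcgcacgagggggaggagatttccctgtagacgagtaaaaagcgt
Hmgcs1 carried the sterol element 137 bases before the start, between CCAAT boxes at 176 and 45 bases, with a further one at 237. Msmo1 had CCAAT boxes at 160, 96 and 55 bases before the start, Cyp51 had a single box at 29 bases, and Elovl6 had neither motif. Fdps, Fdft1, Sqle, Stard4, Scd1 and Scd2 had no entry.

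In ESCs, none of the 28 genes was called different between the ΔZF1 and WT rescue lines. None of the 28 passed the threshold (edgeR quasi-likelihood test, an adjusted p no higher than 0.05 together with a log2 change of 0.5 or more, up or down) in ESC-ΔZF1 against ESC-WT, where 3.61% of all genes did. A count of 0 among 28 is near that share. The median log2 fold change of the members was 0.06, against -0.01 for all genes, and their values ran from -0.46 (Srebf1) to 0.40 (Msmo1). Srebf1 lies on chromosome 11, whose median was also -0.46. With that median taken into the offsets, Srebf1 came to -0.01. At an unadjusted p under 0.05 there were 3 of the 28 members, where 18.1% of all genes stood, and DESeq2 called 0. Hmgcs1 read 304 and 299 CPM in ESC-WT and 342 and 342 CPM in ESC-ΔZF1. Scd2 read 1190 and 1125 CPM in ESC-WT and 995 and 967 CPM in ESC-ΔZF1. The differences (0.18 and -0.24 on the log2 scale) missed the threshold, with adjusted p of 0.592 and 0.270.

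In NPCs, 9 of the 17 sterol enzymes were up-regulated in the ΔZF1 line and none was down-regulated. In NPC-ΔZF1 against NPC-WT, 14 of the 28 members were up-regulated and 1 was down-regulated, where 7.19% and 10.5% of all genes were. The median log2 fold change over all 28 was 0.49, against 0.00 for all genes, and 23 of the 28 values were positive. The other up-regulated members were 3 of the 5 fatty acid genes, Insig1 and Stard4, and the down-regulated member was Srebf1. The 28 genes took 0.667% and 0.664% of the counts in the NPC-ΔZF1 libraries and 0.525% and 0.554% in the NPC-WT libraries. In bulk RNA, more RNA per cell and more cells of a type rich in it cannot be told apart.

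**Figure D1:**
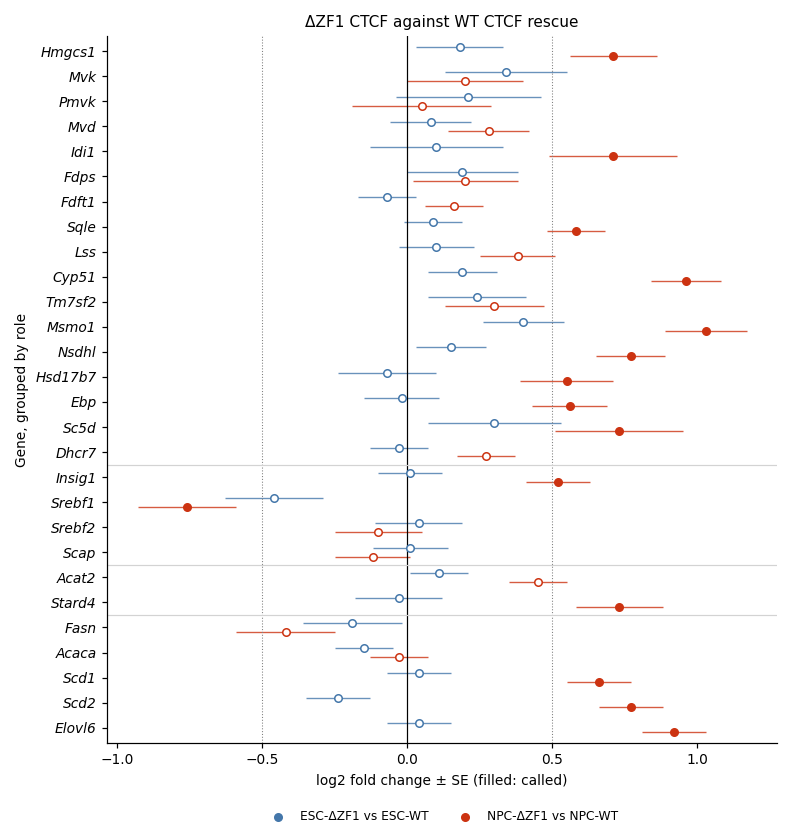
Log2 fold change of each of the 28 genes in ΔZF1 against WT CTCF rescue, in ESCs (blue) and NPCs (red), with the standard error of the fit as bars, 2 libraries per group. Filled points passed the threshold and dotted lines mark 0.5 in either direction. All ESC points are open, and 15 NPC points are filled, 14 of them to the right.

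The largest increases fell on the middle of the sterol pathway and on the fatty acid elongase. Msmo1, which oxidises the methyl groups that are removed from lanosterol, read 110 and 80.8 CPM in NPC-WT and 194 and 197 CPM in NPC-ΔZF1 (log2 fold change 1.03, SE 0.14, adjusted p = 0.00100). Cyp51, the lanosterol demethylase, read 107 and 87.7 CPM against 190 and 189 CPM (0.96, SE 0.12, adjusted p = 7.16e-04). Elovl6, which lengthens palmitate, read 76.4 and 66.2 CPM against 138 and 134 CPM (0.92, SE 0.11, adjusted p = 5.68e-04). In all 3 genes both ΔZF1 libraries lay above both WT libraries, and the ΔZF1 pair agreed more closely than the WT pair.

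Of the enzymes before lanosterol, Hmgcs1 read 357 and 252 CPM in NPC-WT and 509 and 486 CPM in NPC-ΔZF1 (0.71, SE 0.15, adjusted p = 0.00835). Sqle, the squalene epoxidase, read 152 and 134 CPM against 219 and 210 CPM (0.58, SE 0.10, adjusted p = 0.00410). Idi1 was also called, at 0.71 (adjusted p = 0.0466). The Hmgcs1 and Idi1 values of the WT libraries were far apart. The other mevalonate and squalene enzymes missed the threshold, namely Mvk (0.20), Pmvk (0.05), Mvd (0.28), Fdps (0.20), Fdft1, the squalene synthase (0.16), and Lss, the lanosterol synthase (0.38). Of the enzymes after lanosterol, Nsdhl (0.77), Sc5d (0.73), Ebp (0.56) and Hsd17b7 (0.55) were up-regulated beside Msmo1 and Cyp51. Tm7sf2 (0.30) and Dhcr7, a reductase at the end of the pathway (0.27), missed the threshold.

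Among the regulators, Insig1 read 106 and 91.3 CPM in NPC-WT and 140 and 142 CPM in NPC-ΔZF1 (0.52, SE 0.11, adjusted p = 0.00789). Srebf2 read 315 and 442 CPM against 352 and 354 CPM, so the ΔZF1 values lay between the WT values (-0.10, adjusted p = 0.653). Scap read 82.3 and 103 CPM against 85.3 and 84.7 CPM (-0.12, adjusted p = 0.510). Of these 3 genes only Insig1 passed the threshold. Stard4, a cytosolic sterol carrier, was called at 0.73 (SE 0.15, adjusted p = 0.00806). Acat2, which makes acetoacetyl-CoA for the pathway, had an adjusted p of 0.0122 but a log2 fold change of 0.45, under the fold threshold.

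The fatty acid genes divided. Scd1 read 242 and 201 CPM in NPC-WT and 353 and 346 CPM in NPC-ΔZF1 (0.66, SE 0.11, adjusted p = 0.00299). Scd2 read 1194 and 1026 CPM against 1940 and 1857 CPM (0.77, SE 0.11, adjusted p = 0.00122). Both desaturases and Elovl6 were thus higher in both ΔZF1 libraries than in either WT library. Fasn read 1332 and 2049 CPM in NPC-WT and 1249 and 1269 CPM in NPC-ΔZF1 (-0.42, SE 0.17, adjusted p = 0.106). Srebf1 read 168 and 254 CPM against 124 and 125 CPM (-0.76, SE 0.17, adjusted p = 0.0121). Acaca, the acetyl-CoA carboxylase, did not differ past the threshold (-0.03, adjusted p = 0.848). Srebf1, Fasn and Acaca lie on chromosome 11, whose 1322 tested genes had a median log2 fold change of -0.57, against medians of -0.04 to 0.17 for the other autosomes apart from chromosome 8. The same chromosome had a median of -0.46 in ESCs. With the median of the chromosome taken into the offsets, Srebf1 came to -0.19 (adjusted p = 0.455) and was no longer called, Fasn came to 0.14 (adjusted p = 0.593), and Acaca came to 0.53 (adjusted p = 0.00747) and was called higher.

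The NPC-ΔZF1 call count depended on the libraries. Cyp51, Msmo1, Nsdhl, Scd2 and Elovl6 were called under each alternative run, and all 15 members kept their direction in each, but the count fell to 5 when only the 4 NPC rescue libraries were fitted. It was 16 without NPC-WT replicate 1, 10 without NPC-WT replicate 2, 6 without NPC-ΔZF1 replicate 1 and 7 without NPC-ΔZF1 replicate 2, and without NPC-WT replicate 2 Hmgcs1, Idi1, Sqle, Hsd17b7, Ebp, Sc5d, Insig1, Srebf1 and Stard4 were not called while Mvk, Pmvk, Lss and Acat2 were called higher.

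Markers of extraembryonic endoderm, a tissue of the early yolk sac, moved with this comparison. All 9 markers of that list (Gata6, Gata4, Sox17, Sox7, Foxa2, Dab2, Cubn, Pdgfra and Lama1) were higher in NPC-ΔZF1, with a median log2 fold change of 2.95. Their summed level was 387 to 391 CPM in NPC-WT and 3270 to 3410 CPM in NPC-ΔZF1, against 154 to 231 CPM in ESC rescue libraries, and none was at 0. Cubn, for example, read 94.3 and 72.7 CPM in NPC-WT and 959 and 1086 CPM in NPC-ΔZF1. Of 4 tested neural progenitor markers 2 were higher and 1 lower, of 4 tested neuron and 4 tested mesoderm markers 1 was higher and 1 lower in each list, and of 6 naive markers none was called by edgeR. The part of these markers in the change of the lipid synthesis genes was not tested.

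Outside the 28 genes, 20 further SREBP-linked lipid synthesis genes were followed, of which 19 were tested. In ESC-ΔZF1 against ESC-WT, 1 of the 19 was up-regulated (Lpin1) and 1 was down-regulated (Tmem97), where 3.61% of all genes were called. In NPC-ΔZF1 against NPC-WT, 4 of the 19 were up-regulated and none was down-regulated, where 7.19% and 10.5% of all genes were. Their median log2 fold change was 0.18 in NPCs. The 4 were Elovl5, a fatty acid elongase (0.85), Acss2, an acetyl-CoA synthetase (0.83), Acsl4, an acyl-CoA synthetase (0.85), and Me1, the cytosolic malic enzyme (0.55). Of 12 sterol efflux, storage and LXR genes, 1 was up-regulated (Npc2, a lysosomal sterol carrier, 0.90) and none down-regulated, with a median of -0.02. Of 14 fatty acid oxidation genes tested, none was up-regulated and 3 were down-regulated (Acadvl, -1.41, Ehhadh, -0.97, and Cpt1c, -0.53), with a median of -0.08. Acadvl lies on chromosome 11, as do Srebf1 and Fasn, and the median of that chromosome was -0.57 in NPC-ΔZF1 against NPC-WT. The same shares of all genes, 7.19% higher and 10.5% lower, are the background for these lists. A count of 1 up-regulated gene among 12 is near that background. The count of 3 down-regulated genes among 14 was not tested against it, so no fall of the oxidation genes as a list is read from it.

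Whether the ΔZF1 and WT lines differed to another extent in NPCs than in ESCs was tested as the difference of the 2 effects. It passed the threshold in 3 of the 28 members, all with a higher effect in NPCs, where 1.59% of all genes passed with a higher and 1.11% with a lower effect. These were Scd2 (difference 1.01, SE 0.15, adjusted p = 0.0103), Elovl6 (0.89, SE 0.15, adjusted p = 0.0157) and Cyp51 (0.77, SE 0.17, adjusted p = 0.0389). The median difference over the members was 0.39, against 0.01 for all genes. For the other 11 members up-regulated in NPCs, the ESC and NPC effects were therefore not shown to differ. The count depended on single libraries, at 0 without any ESC rescue library or either NPC-ΔZF1 library, 3 without NPC-WT replicate 2 and 17 (14 higher and 3 lower) without NPC-WT replicate 1.

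**Figure D2:**
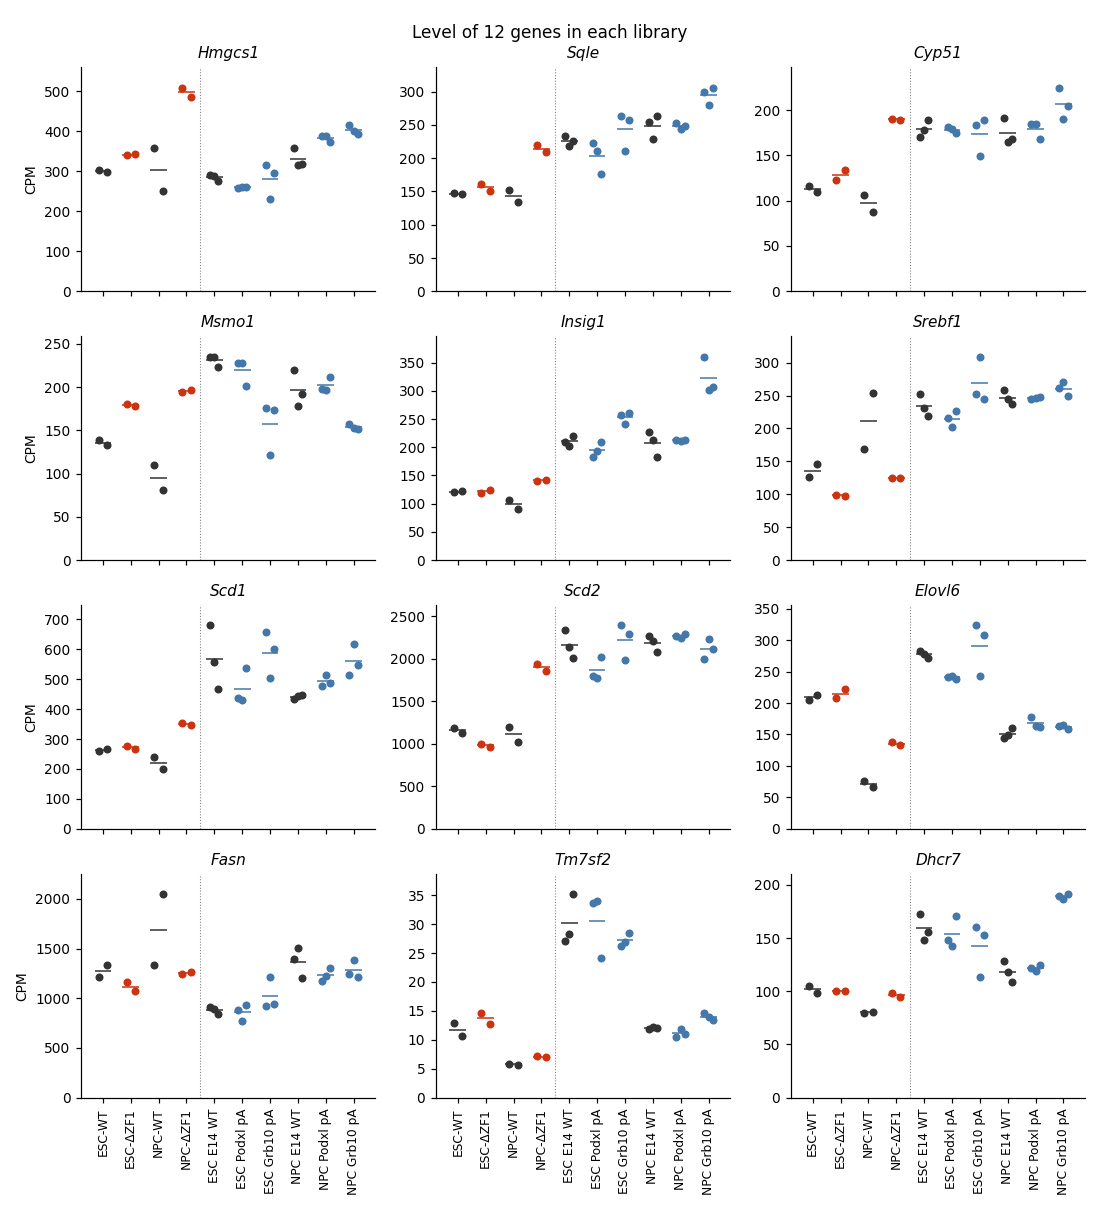
Level in CPM of 12 genes in each of the 26 libraries, on axes that start at 0, with a line at each group mean; rescue lines stand left of the dotted line and truncation lines right of it, and the tables were scaled separately. Red marks ΔZF1, blue Podxl pA and Grb10 pA, and black WT. The NPC-ΔZF1 points lie above both NPC-WT points for every gene shown except Srebf1 and Fasn, where they lie below both. The 12 genes were chosen by hand, and the share of all genes so separated was not computed. Among members not shown, the NPC-ΔZF1 values of Mvk, Pmvk, Fdps, Srebf2 and Scap lay between the NPC-WT values. Tm7sf2, Dhcr7 and Fasn missed the threshold in this comparison.

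Differentiation itself moved the members in both directions. In NPC-WT against ESC-WT, 2 members were up-regulated and 6 down-regulated, with a median of -0.06, where 22.0% and 19.9% of all genes were. In NPC-ΔZF1 against ESC-ΔZF1 the counts were 6 and 2, with a median of 0.21 and shares of all genes of 20.4% and 16.9%. In NPC E14 WT against ESC E14 WT they were 1 and 6 (median -0.17, all genes 16.5% and 16.3%), in Podxl pA 3 and 6 (median 0.04, all genes 17.1% and 14.7%), and in Grb10 pA 2 and 5 (median -0.05, all genes 17.2% and 17.4%). As shares of 28, most of these counts were near or under the background. Over the 5 lines, 9 members were called higher at least once, 10 were called lower at least once, none was called both ways, and 9 were never called. The matching shares of all genes over the 5 lines were not computed, so these counts are not read as a trait of the members.

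Tm7sf2 and Elovl6 were called lower in NPCs of all 5 lines, although Elovl6 in Podxl pA (-0.52) fell short of the fold threshold with RLE factors, with no filter, and without NPC Podxl pA replicate 2 or 3. Tm7sf2 read 27.2, 28.3 and 35.2 CPM in ESC E14 WT and 11.9, 12.2 and 12.1 CPM in NPC E14 WT (log2 fold change -1.30, SE 0.15, adjusted p = 6.90e-08). In the rescue line it read 12.8 and 10.6 CPM in ESC-WT and 5.84 and 5.66 CPM in NPC-WT (-1.0, SE 0.18, adjusted p = 0.00120). No ESC and NPC libraries overlapped. Elovl6 read 282, 278 and 272 CPM in ESC E14 WT and 144, 150 and 160 CPM in NPC E14 WT (-0.88, SE 0.09, adjusted p = 4.14e-09). It read 205 and 213 CPM in ESC-WT and 76.4 and 66.2 CPM in NPC-WT (-1.55, SE 0.11, adjusted p = 3.18e-06), but 208 and 222 CPM in ESC-ΔZF1 and 138 and 134 CPM in NPC-ΔZF1 (-0.66). The gap between the last 2 changes is the called difference of 0.89 given above.

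Ebp, the sterol isomerase, was called lower in 4 of the 5 lines. It read 52.8, 56.8 and 51.1 CPM in ESC E14 WT and 24.8, 23.9 and 18.5 CPM in NPC E14 WT (-1.25, SE 0.13, adjusted p = 1.44e-08), and 37.2 and 35.5 CPM in ESC-WT and 18.8 and 16.5 CPM in NPC-WT (-1.03, SE 0.14, adjusted p = 2.06e-04). In the ΔZF1 line its value was -0.46 (adjusted p = 0.0167), under the fold threshold. Fdft1 and Acat2 had negative values in all 5 lines, Acat2 being called in E14 WT (-0.50, at the edge of the fold threshold and lost under 8 alternatives) and Podxl pA (-0.58), and Fdft1 in none. Pmvk, Mvd and Nsdhl were each called lower in 2 lines, and Idi1, Msmo1 and Hsd17b7 in 1 line each.

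Members with positive values in all 5 lines were Hmgcs1, Sc5d, Scap, Fasn and Acaca. Hmgcs1 was called in the ΔZF1 line (0.54, not without ESC-ΔZF1 replicate 1 or 2 or NPC-ΔZF1 replicate 1), in Podxl pA (0.56) and in Grb10 pA (0.52, not without ESC Grb10 pA replicate 2), but read 291, 287 and 277 CPM in ESC E14 WT against 359, 315 and 318 CPM in NPC E14 WT (0.21, adjusted p = 0.0509). Fasn read 912, 893 and 846 CPM in ESC E14 WT and 1397, 1509 and 1203 CPM in NPC E14 WT (0.63, SE 0.10, adjusted p = 7.22e-06). Acaca, which makes the malonyl-CoA that Fasn uses, was called in Podxl pA (0.52) and Grb10 pA (0.62). Scap read 56.3 and 50.7 CPM in ESC-WT and 82.3 and 103 CPM in NPC-WT (0.80, SE 0.13, adjusted p = 7.23e-04), and was called in the ΔZF1 line as well (0.66). Srebf1 was called in NPC-WT against ESC-WT only, at 126 and 145 CPM against 168 and 254 CPM (0.63, SE 0.17, adjusted p = 0.0115), and without NPC-WT replicate 2 or without ESC-WT replicate 1 it was not called. In the ΔZF1 line Stard4 (1.01), Sc5d (0.98), Scd2 (0.95) and Cyp51 (0.56) were also called higher in NPCs.

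**Figure D3:**
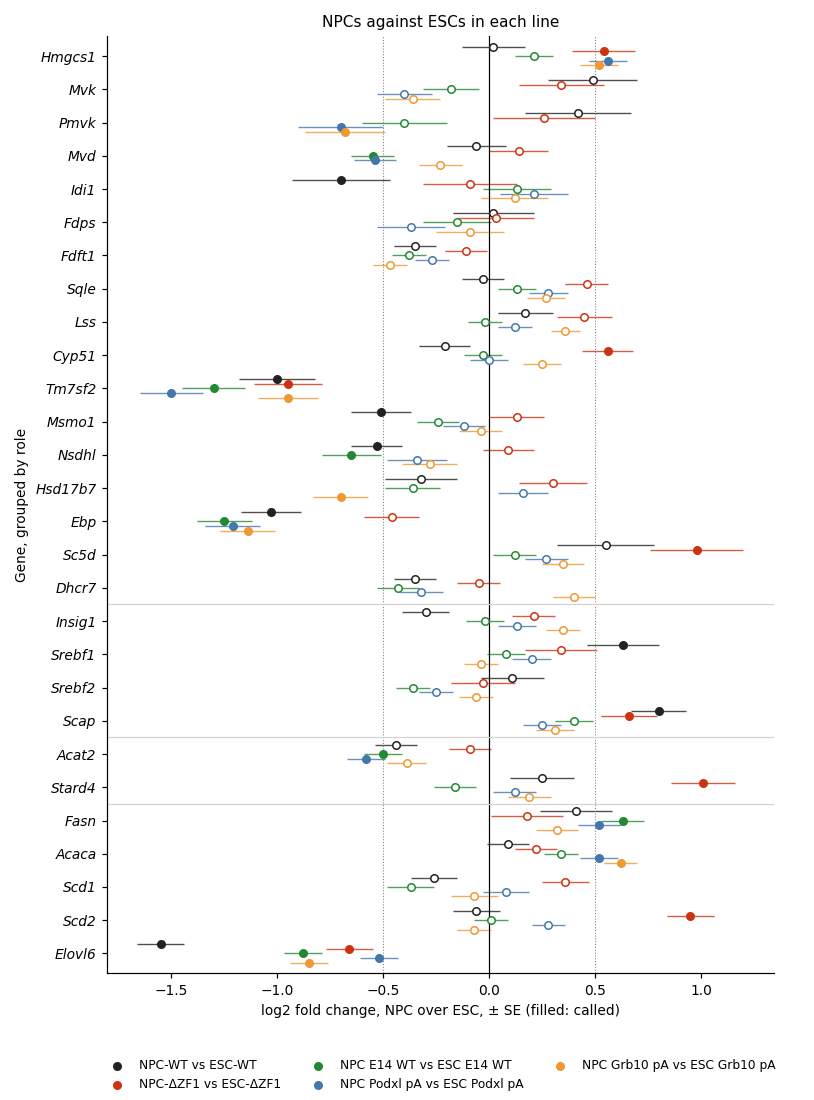
Log2 fold change of NPCs over ESCs for the 28 genes in each of the 5 lines, with the standard error of the fit as bars, 2 libraries per group in the rescue lines and 3 in the others. Filled points passed the threshold and dotted lines mark 0.5 in either direction. Tm7sf2 and Elovl6 are filled on the left in all 5 lines, and Ebp in 4.

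NPCs of every line also held more extraembryonic endoderm marker RNA than their ESCs. The list was called higher in 8 of 9 markers in the WT rescue line and in 9 of 9 in the other 4 lines, with summed levels of 387 to 391 CPM in NPC-WT and of 592 to 1570 CPM in NPC truncation libraries, against 83.6 to 231 CPM in ESC libraries. Its part in the differentiation changes of the lipid synthesis genes was not tested. The NPC-WT count of 8 fell to 5 when only the 4 WT rescue libraries were fitted, without ESC-WT replicate 1, without ESC-WT replicate 2 or without NPC-WT replicate 2, and rose to 12 without NPC-WT replicate 1. The Podxl pA count of 9 fell to 5 without ESC Podxl pA replicate 2 or without NPC Podxl pA replicate 3, Mvd, Fasn and Acaca being lost in both.

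In the Podxl pA line, none of the 28 genes passed the threshold. In ESC Podxl pA against ESC E14 WT no member was called, where 0.339% of all genes were, and the values ran from -0.29 to 0.09 with a median of -0.09. In NPC Podxl pA against NPC E14 WT no member was called, where 0.550% of all genes were, and the values ran from -0.22 to 0.36 with a median of 0.02. At an unadjusted p under 0.05 there were 3 members in each of the 2 comparisons, where 9.2% of all genes stood in ESCs and 10.2% in NPCs, and DESeq2 called 0 in both. The difference between the NPC and ESC effects passed in 0 members (0.0980% of all genes), with 5 members (against 10.2% of all genes) at an unadjusted p under 0.05 and 0 by DESeq2. Extraembryonic endoderm markers were higher in NPC Podxl pA in 5 of 9 cases, at 1450 to 1570 CPM summed against 716 to 970 CPM in NPC E14 WT. Their part in the levels of the lipid synthesis genes was not tested.

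In the Grb10 pA line, 2 of the 28 genes passed the threshold in ESCs and 4 in NPCs, counts close to the shares of all genes called. The truncation comparisons share the E14 WT libraries as controls. In ESC Grb10 pA against ESC E14 WT none of the 28 was up-regulated and 2 were down-regulated, where 4.51% and 4.58% of all genes were, and the median was -0.03. Mvd, the mevalonate diphosphate decarboxylase, read 65.5, 86.3 and 77.9 CPM against 128, 104 and 104 CPM (-0.56, SE 0.10, adjusted p = 3.48e-04). Msmo1 read 176, 122 and 174 CPM against 235, 234 and 223 CPM (-0.55, SE 0.10, adjusted p = 4.22e-04). The groups did not overlap in either gene. Both genes lie on chromosome 8, whose 730 tested genes had a median of -0.49, against -0.02 to 0.07 for the other autosomes apart from chromosome 11. With this median taken into the offsets neither was called, at -0.08 (adjusted p = 0.689) for Mvd and -0.06 (adjusted p = 0.757) for Msmo1. Msmo1 was also lost without ESC Grb10 pA replicate 2, and Mvd without ESC Grb10 pA replicate 1 or ESC E14 WT replicate 1.

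In NPC Grb10 pA against NPC E14 WT, 3 members were up-regulated and 1 was down-regulated, where 7.90% and 8.64% of all genes were, and the median was 0.08. Dhcr7 read 190, 187 and 191 CPM in NPC Grb10 pA and 128, 118 and 109 CPM in NPC E14 WT (0.68, SE 0.10, adjusted p = 1.04e-05). Insig1 read 361, 301 and 308 CPM against 227, 212 and 183 CPM (0.64, SE 0.09, adjusted p = 3.20e-06). Stard4 read 196, 154 and 175 CPM against 123, 105 and 140 CPM (0.53, SE 0.10, adjusted p = 2.84e-04). All 3 were higher in each Grb10 pA library than in any WT library. Hsd17b7 read 16.9, 18.1 and 15.7 CPM against 25.8, 24.8 and 26.9 CPM (-0.61, SE 0.13, adjusted p = 0.00109), again without overlap. Without the fold threshold 12 members were called, among them Srebf2, which read 564, 623 and 562 CPM against 437, 428 and 400 CPM (0.47, SE 0.08, adjusted p = 1.35e-04). The share of all genes under that looser rule was not computed. At an unadjusted p under 0.05 there were 13 of the 28 members, where 39.3% of all genes stood. Stard4 was not called without NPC Grb10 pA replicate 1 or without NPC E14 WT replicate 2.

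The difference between the NPC and ESC effects of the Grb10 truncation passed in 1 member, Dhcr7, in the higher direction, where 2.86% of all genes passed with a higher and 3.04% with a lower effect. The NPC against ESC value of Dhcr7 was -0.43 in E14 WT (adjusted p = 9.97e-04) and 0.40 in Grb10 pA (adjusted p = 0.00115), both under the fold threshold. The difference was 0.83 (SE 0.14, adjusted p = 5.22e-04), and Dhcr7 was called under each alternative run. Msmo1 and Mvd, on chromosome 8, were at -0.35 (adjusted p = 0.0108) and -0.25 (adjusted p = 0.0803) in NPC Grb10 pA, where the median of that chromosome was -0.48. All 3 tested neural progenitor markers were lower in NPC Grb10 pA, the summed list standing at 34.4 to 43.7 CPM against 103 to 114 CPM in NPC E14 WT. Endoderm markers were lower in 3 of 9 cases (592 to 760 CPM summed against 716 to 970 CPM), and of the 6 naive ESC markers 3 were higher and 1 lower (770 to 829 CPM against 629 to 720 CPM). Their part in the changes of Dhcr7, Insig1, Stard4 and Hsd17b7 was not tested.

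**Figure D4:**
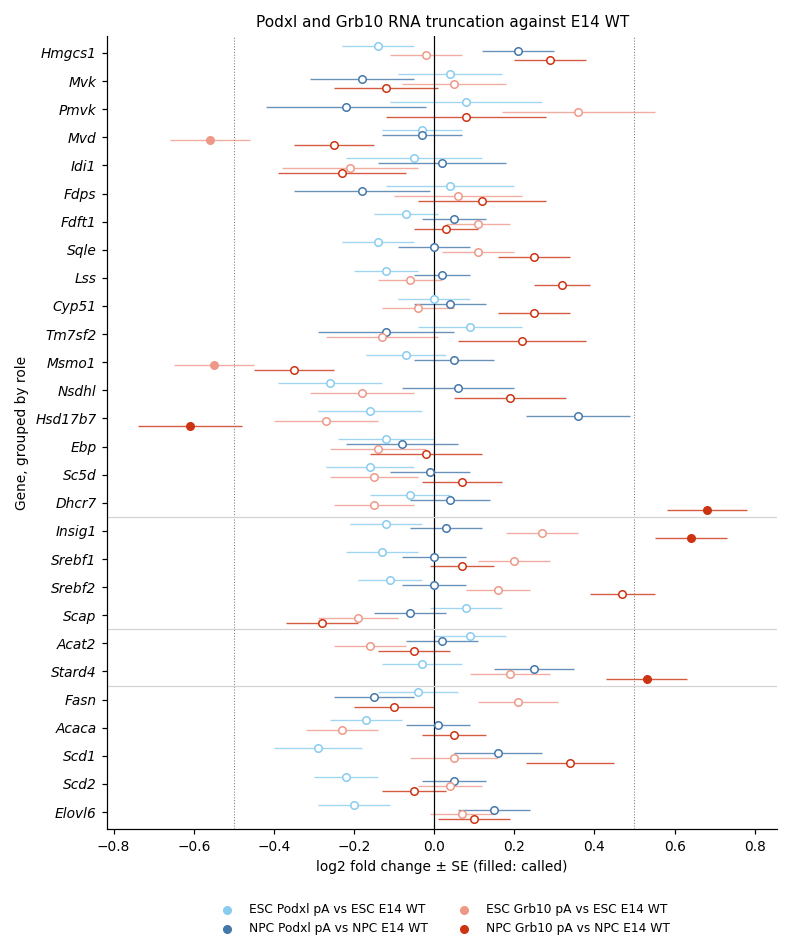
Log2 fold change of the 28 genes in Podxl pA (blue) and Grb10 pA (red) against E14 WT, in ESCs (light) and NPCs (dark), with the standard error of the fit as bars, 3 libraries per group. Filled points passed the threshold and dotted lines mark 0.5 in either direction. All Podxl pA points are open, and the filled Grb10 pA points are Mvd and Msmo1 in ESCs and Hsd17b7, Dhcr7, Insig1 and Stard4 in NPCs.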

How the data were processed

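Ribosomal RNA was depleted from total RNA and random-primed, directional libraries were sequenced. Per the labels and the study's methods, reads were aligned to mm10 with STAR and counted per gene with featureCounts. The deposited values are raw counts, and the authors' counting was unstranded. Versions and annotation are not given in the sources used here. The rescue and truncation tables were scaled and tested separately, and 3 columns that match no sample were not used.

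Genes were filtered with filterByExpr (16641 and 13268 left), TMM-scaled, and fitted over all groups of a table with edgeR 4.0.16 (glmQLFit, glmQLFTest, R 4.3.3), with Benjamini-Hochberg adjustment over all genes tested. Called meant an adjusted p no higher than 0.05 together with a log2 change of 0.5 or more, up or down. The labels number replicates without naming cultures, so p-values measure the spread between these libraries. Where libraries of compared groups are said not to overlap, the printed values are restated. The share of all genes without overlap was not computed, so no support is drawn from it. DESeq2 1.42.0, RLE factors, no filter, fewer libraries, a replicate block, no fold threshold, and offsets for chromosome-wide shifts were run as alternatives. Levels are CPM on TMM-scaled totals, and the smallest library held 1907505 counts. Positions and exon lengths came from GENCODE M21. The members, gene lists and tests were chosen with earlier results of these data known.

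Values in every library are given for Srebf1, Srebf2, Scap, Insig1, Hmgcs1, Sqle, Fasn, Scd1 and Scd2, and for the 3 largest called rises and falls of the main comparisons. Cubn was chosen as an example after its values were seen.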

Additional observations from a re-analysis of the deposited data

Results flagged for a closer look

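For 4 members the gap between a mutant line and WT differed between NPCs and ESCs by the test of the difference itself. The ΔZF1 effect was larger in NPCs by 1.01 on the log2 scale for Scd2, by 0.89 for Elovl6 and by 0.77 for Cyp51, where 1.59% of all genes passed in this direction. None of these 3 passed when any ESC rescue library or either NPC-ΔZF1 library was left out. The Grb10 pA effect on Dhcr7 was larger in NPCs by 0.83, where 2.86% of all genes passed in this direction, so that 1 of 28 is near the background. No explanation of these differences was tested.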

How the results depend on the processing

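Of 64 member changes called, 675 values under alternatives were obtained, of which 566 stayed called, 109 did not, and 0 turned direction. Fitting only the groups compared gave 5 called members in NPC-ΔZF1 against NPC-WT (main count 15) and 5 in NPC-WT against ESC-WT (8). For the difference of the ΔZF1 effects (3), no filter gave 6 and DESeq2 gave 5. Without the fold threshold, 14 members were called for E14 WT differentiation (7), 18 each for Podxl pA (9) and Grb10 pA (7) differentiation, 12 for NPC Grb10 pA against WT (4) and 2 for the difference of the Grb10 pA effects (1). The shares of all genes called without the fold threshold were not computed, so those counts have no background here. The chromosome 8 offset gave 0 in ESC Grb10 pA against WT (2). Fewer libraries and a looser rule change by construction what can be called, and for the other settings the cause was not tested. Leaving out single libraries gave 6 to 16 in NPC-ΔZF1, 5 to 12 in NPC-WT against ESC-WT, 0 to 17 for the difference of the ΔZF1 effects, 5 to 9 in Podxl pA differentiation, and 1 to 2 in ESC Grb10 pA. Where a group was left with 1 library, it was assumed to vary like the others. Same-numbered libraries deviated together with correlations of -0.09 to 0.13, so the numbers were not taken to pair them. A replicate block gave 14 calls in NPC-ΔZF1 (Idi1 lost) and 2 for the difference of the ΔZF1 effects (Cyp51 lost), and moved no other call among the members. The counts of 0 in ESC-ΔZF1, in both Podxl pA comparisons with WT and in their difference were 0 under all alternatives run.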
